A study of Mus musculus with 6 samples.

Results

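Dual-specificity phosphatases are enzymes that remove phosphate from both tyrosine and serine or threonine of their substrates, and many of them switch off MAP kinases, the ERK, JNK and p38 proteins at the end of kinase cascades that carry signals from surface receptors to the nucleus. Several of their genes are early response genes whose transcription follows the same signals that the enzymes then dampen, so the family is known as a feedback arm of MAP kinase signalling. In T cells the cascades are started by the antigen receptor, while cyclic AMP, the messenger raised by the adenosine receptor A2AR, acts through protein kinase A and the transcription factor CREB. The genes described here are 10 members of that family, Dusp1, Dusp2, Dusp4, Dusp5, Dusp6, Dusp7, Dusp10, Dusp11, Dusp16 and Dusp22, with all 15 probe sets annotated to them among the 45101 probe sets and 18193 singly annotated genes of the array. A further 16 dual-specificity phosphatase genes with probe sets on the array were not among them. The 10 genes were chosen by name with the differences between the 3 groups of arrays already known, and no threshold on a value was set. Their levels and differences are therefore given as a description, and counts of members past a threshold support nothing about them.

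RNA from regulatory T cells (Tregs), which hold immune responses in check, was hybridised to 6 arrays in 3 groups of 2. All groups came from C57Bl/6 mice aged 8 to 11 weeks that carried FoxP3GFP, whose spleens and lymph nodes gave CD4+CD25+FoxP3+ cells by FACS, and all were cultured for 18 h. The labels call the vehicle cells unactivated. The groups were wild-type (A2AR+/+FoxP3GFP) cells with the DMSO vehicle, A2AR-/-FoxP3GFP cells with vehicle (KO vehicle), and a wild-type group given ATL1222 at 10 nM, an agonist selective for A2AR according to the labels. No knockout cells with the agonist are among the samples. The labels say biological replicate but not whether replicates came from separate animals, nor in which cells of the knockout mice the receptor gene was lost. The p-values thus cover the spread among these arrays, which may be technical.

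The values are array signals on a linear scale. The median signal of an array lay between 74.68 and 98.17, and ratios ran of 3' to 5' control probe sets from 1.21 to 1.45 for Gapdh and from 1.93 to 2.53 for Actb. Poly-A spike-in RNAs were brighter on replicate 1 than on replicate 2 in every group, with median ratios from 1.13 to 2.10, so differences within each replicate number are given beside the fitted ones. Of 6 Treg genes, Ikzf2, Nrp1, Ctla4 and Tnfrsf18 had signals of at least 2921 on every array, and Il2ra, which encodes CD25, lay between 416 and 613. Tnfrsf18 was at 5124 and 3923 in WT vehicle, 3623 and 2921 in KO vehicle, and 7823 and 6331 with ATL1222. Ctla4 also lay higher on both agonist arrays than on every vehicle array. Nrp1 went the other way, at 7836 and 6667 in WT vehicle, 8299 and 6821 in KO vehicle, and 6109 and 5319 with ATL1222. Il2ra was lower with ATL1222 (468 and 416) than in WT vehicle (507 and 543), and Ikzf2 overlapped between them. The Treg genes thus did not move in 1 direction with the agonist. Foxp3 lay between 7.2 and 53.5, under the limit for dim genes given below, although the sorted cells are described as FoxP3+ and came from FoxP3GFP mice. Among markers of other cells, 4 of 5 B cell genes were measured, with summed signals of 6859 to 7948 in WT vehicle, 7363 to 7557 in KO vehicle and 4721 to 4807 with ATL1222; without Ighm the sums were 409 to 464, 408 to 508 and 523 to 530, and Cd79a lay between 23.1 and 77.7. CD8 T and NK cell markers, 3 of 4 measured, summed to 219 to 238 in WT vehicle, 321 to 352 in KO vehicle and 225 to 229 with ATL1222. Dendritic cell markers, 4 of 4 measured, were dim, with none above 91.7 on any array. They summed to 141 to 146 in WT vehicle, 105 to 122 in KO vehicle and 170 to 190 with ATL1222. The sums stood in the order given below for Dusp1 and Dusp10, but no single one of these markers showed that order without overlap. The part of these cells in the results below was not tested, and lower levels per cell cannot be told apart from fewer cells of a kind.

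Differences are given as log2 fold changes of (signal + 16), which understate changes of dim genes, with the standard error (SE) of a limma fit over all 6 arrays and 10916 genes, each represented by its brightest probe set. The lowest 40% of genes, with a mean signal under about 71.2, were left out; all 10 Dusp genes were above that limit. A gene is called where its Benjamini-Hochberg adjusted p, taken over the 10916 genes, is under 0.05. Groups are said not to overlap where both arrays of one lie above both of the other.

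Against WT vehicle, 4 of the 10 genes had both arrays higher with the agonist, as 14.5% of all genes did: Dusp4 (2.44-fold), Dusp10 (2.24-fold), Dusp1 (1.96-fold) and Dusp5 (1.69-fold). In the knockout the means of all 10 genes by their brightest probe sets were below WT vehicle, where 50.9% of all genes had positive changes. The largest were those of Dusp6 (1.86-fold lower) and Dusp1 (1.60-fold lower). The 4 further probe sets tested, of Dusp7, Dusp11 and Dusp16, had positive changes instead, so the direction of those genes in the knockout depended on the probe set. Dusp2, Dusp7, Dusp11, Dusp16 and Dusp22 had group means within 1.27-fold of each other. Of these 10 genes, Dusp10 alone was called with the agonist against WT vehicle, beside 0.211% of all genes, and that call was lost in 4 of the alternatives named below. In the knockout 0 of the 10 were called, beside 0.0275% of all genes.

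The promoters of 9 of the 10 genes are in the RefSeq table used here (build GRCm38.p6, from 250 bases before to 50 after the start of the gene). That of Dusp4 is not, so Dusp4 was not searched. The 9 were searched on both strands for the full cyclic AMP response element, TGACGTCA, for its short form, TGACG or CGTCA on the other strand, and for the AP-1 motif, TGANTCA. The full element contains a short form on each strand. Of all 32851 promoters of that table, 1.79% hold the full element, 20.8% a short form and 7.81% the AP-1 motif. The full element was found in 1 of the 9, Dusp1, and a short form in 5, Dusp1, Dusp2, Dusp5, Dusp11 and Dusp16. The AP-1 motif was found in 0 of the 9. The sequences of 3 genes with higher means under the agonist are shown with that of Dusp2, whose mean was not higher, each 5′ to 3′ on the strand of the gene, with the elements and short forms in capitals.
Dusp1, chr17:26508423-26508722, minus strand: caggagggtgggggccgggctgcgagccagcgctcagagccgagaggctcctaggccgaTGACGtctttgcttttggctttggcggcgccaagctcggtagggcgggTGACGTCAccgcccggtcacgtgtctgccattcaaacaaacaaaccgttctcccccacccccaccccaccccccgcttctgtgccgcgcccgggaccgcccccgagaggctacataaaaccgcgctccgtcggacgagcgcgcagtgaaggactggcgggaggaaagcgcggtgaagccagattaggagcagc
Dusp5, chr19:53528895-53529194, plus strand: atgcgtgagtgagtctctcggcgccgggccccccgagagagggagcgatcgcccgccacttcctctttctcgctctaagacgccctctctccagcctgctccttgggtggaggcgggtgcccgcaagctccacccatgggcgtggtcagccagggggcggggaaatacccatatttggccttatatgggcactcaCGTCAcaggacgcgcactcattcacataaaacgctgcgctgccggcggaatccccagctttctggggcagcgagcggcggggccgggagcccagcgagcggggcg
Dusp10, chr1:184034131-184034430, plus strand: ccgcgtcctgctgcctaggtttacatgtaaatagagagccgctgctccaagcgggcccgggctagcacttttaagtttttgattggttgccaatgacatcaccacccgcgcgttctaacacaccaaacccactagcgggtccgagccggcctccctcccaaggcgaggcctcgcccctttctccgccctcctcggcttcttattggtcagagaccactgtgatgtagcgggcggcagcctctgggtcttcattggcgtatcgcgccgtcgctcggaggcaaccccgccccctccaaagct
Dusp2, chr2:127335909-127336208, plus strand: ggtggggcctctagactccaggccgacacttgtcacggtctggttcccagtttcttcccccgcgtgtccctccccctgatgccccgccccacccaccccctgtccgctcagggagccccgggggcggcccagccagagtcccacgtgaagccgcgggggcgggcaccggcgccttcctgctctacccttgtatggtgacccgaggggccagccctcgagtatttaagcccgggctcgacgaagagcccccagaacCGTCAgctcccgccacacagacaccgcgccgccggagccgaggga
Dusp1 holds the full element at 143 bases before the start and a further short form at 191 before it. The short form of Dusp5 lies 55 bases before the start and that of Dusp2 at position 6 after it. The window of Dusp10 holds 0 full elements and 0 short forms. A match is a run of letters and not a measured binding site. Of the 5 genes with a short form, Dusp1 and Dusp5 lay higher with the agonist without overlap, beside 14.5% of all genes. Dusp2 and Dusp11 lay lower, beside 16.3%, and Dusp16 overlapped, each by its brightest probe set. Among the searched genes with 0 short forms, Dusp10 lay higher and Dusp6, Dusp7 and Dusp22 overlapped.

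The first role is that of the inducible phosphatases of the nucleus, Dusp1, Dusp2, Dusp4 and Dusp5. Dusp1 (chromosome 17) encodes MKP-1, an early response enzyme that acts on p38, JNK and ERK. Its signals were 2110.1 and 1677 in WT vehicle, 1516 and 901 in KO vehicle, and 4040.2 and 3377 with ATL1222. The 3 groups did not overlap and stood in the order knockout, wild type, agonist. The mean was 1894 ± 306 (SD, n = 2) in WT vehicle against 3709 ± 469 with the agonist (log2 0.97 ± 0.21 SE) and 1209 ± 435 in the knockout (log2 -0.68 ± 0.21). With the agonist, replicate 1 gave a log2 change of 0.93 and replicate 2 of 1.00, and in the knockout they gave -0.47 and -0.88. Without KO vehicle replicate 1 the knockout change was -1.05 and without KO vehicle replicate 2 it was -0.31. The higher level with the agonist was thus seen alike in both replicates, whereas the size of the difference in the knockout rested on replicate 2 of that group.

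Dusp4 (chromosome 8) encodes MKP-2, a close relative of MKP-1. Its signals were 365 and 297 in WT vehicle, 368 and 203 in KO vehicle, and 997 and 681 with ATL1222. Both agonist arrays lay above all vehicle arrays, and the 2 vehicle groups overlapped. The mean was 331 ± 48.5 (SD, n = 2) in WT vehicle and 839 ± 223 with the agonist (log2 1.28 ± 0.27 SE), with a change of 1.41 within replicate 1 and 1.16 within replicate 2. The knockout mean was 286 ± 117, a log2 change of -0.25 ± 0.27 that took opposite signs within the replicates, 0.01 and -0.51. Without KO vehicle replicate 2 it was 0.15, and without KO vehicle replicate 1 it was -0.66, so Dusp4 did not order the wild type and the knockout.

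Dusp5 (chromosome 19) encodes a nuclear phosphatase that is specific for ERK. Its signals were 351 and 411 in WT vehicle, 338 and 324 in KO vehicle, and 522 and 818 with ATL1222. The agonist arrays were the highest of the 6, and replicate 2 was well above replicate 1. The mean was 381 ± 42.5 (SD, n = 2) in WT vehicle and 670 ± 209 with the agonist (log2 0.76 ± 0.23 SE), with changes of 0.55 and 0.97 within the replicates. Without WT ATL1222 replicate 2 the change was 0.44 and without replicate 1 of that group it was 1.08. In the knockout the mean was 331 ± 9.39, and although the groups did not overlap the log2 change of -0.19 was smaller than its SE of 0.23.

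Dusp2 (chromosome 2) encodes PAC-1, a nuclear phosphatase first described in activated T cells. Its signals were 2158 and 1763 in WT vehicle, 1724 and 1692 in KO vehicle, and 1582 and 1701 with ATL1222. WT vehicle replicate 1 stood above the 5 other arrays, which lay close together, and unlike the other genes of this role Dusp2 was not higher with the agonist. The log2 change with the agonist was -0.25 ± 0.15 SE, of which replicate 1 gave -0.45 and replicate 2 -0.05. In the knockout it was -0.19 ± 0.15, with -0.32 and -0.06 within the replicates.

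**Figure D1:**
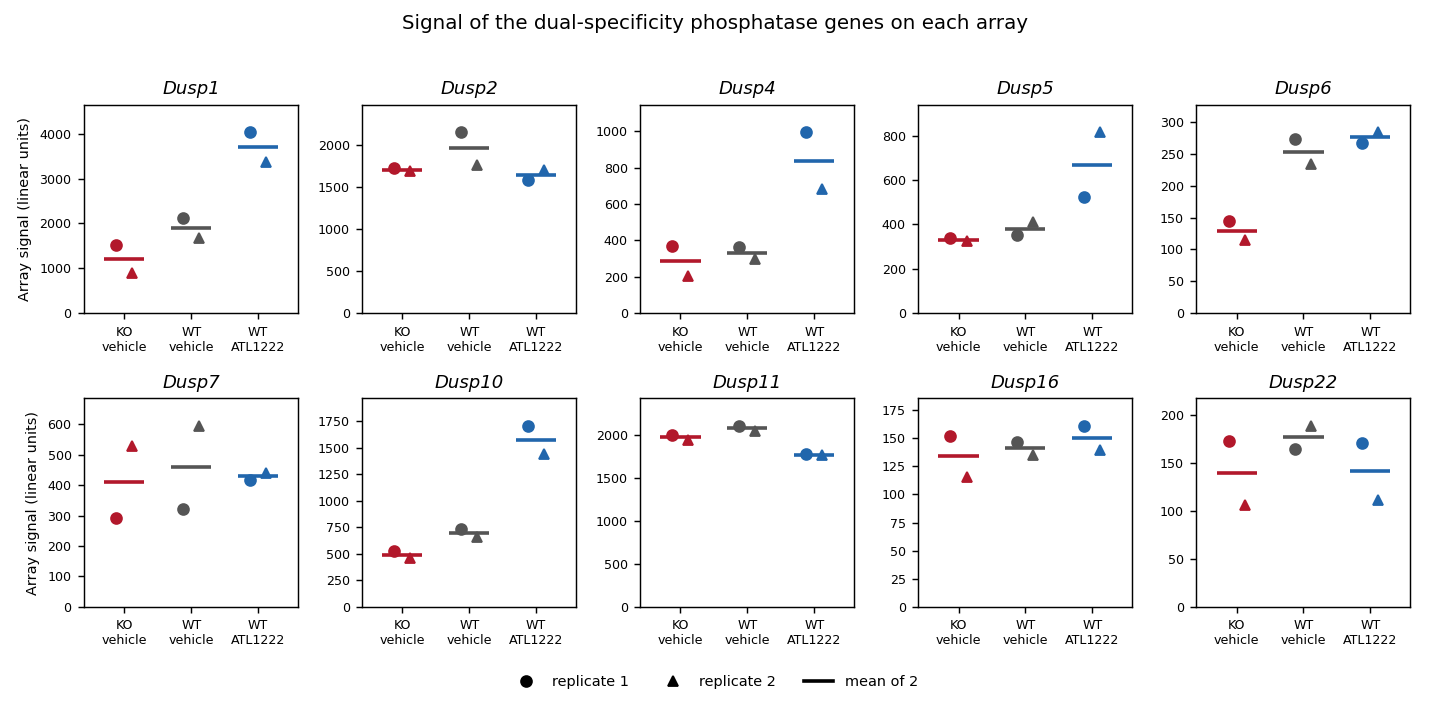
Array signal (linear units, axis from 0) of the brightest probe set of each of the 10 genes; circles are replicate 1, triangles replicate 2 and bars the mean of 2 arrays of KO vehicle, WT vehicle and WT ATL1222. Dusp1, Dusp4, Dusp5 and Dusp10 are highest on both agonist arrays, and Dusp6 is lowest on both knockout arrays, at 145 and 114.

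The cytoplasmic phosphatases of ERK are Dusp6 and Dusp7. Dusp6 (chromosome 10) encodes MKP-3, whose transcription is widely used as a readout of ERK activity. Its signals were 274 and 234 in WT vehicle, 145 and 114 in KO vehicle, and 267 and 285 with ATL1222. Both knockout arrays lay below the other 4, while WT vehicle and agonist overlapped. The mean was 254 ± 28.4 (SD, n = 2) in WT vehicle and 129 ± 21.7 in the knockout (log2 -0.89 ± 0.26 SE), with -0.85 and -0.94 within the replicates. It was not called in the knockout. With the agonist the mean was 276 ± 12.4 (log2 0.12 ± 0.26), and the within-replicate changes had opposite signs, -0.03 and 0.27.

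Dusp7 (chromosome 9) encodes MKP-X, a relative of MKP-3. On its brightest probe set, the signals were 323 and 596 in WT vehicle, 290 and 530 in KO vehicle, and 418 and 439 with ATL1222. In both vehicle groups replicate 2 was far above replicate 1, and all groups overlapped. Its pooled SD within groups on the log2 scale was 0.49, against a median of 0.22 over all genes tested. The spike-in RNAs moved with the replicate number in the opposite direction, and their part in this was not tested. The second probe set, showed the same order of replicates in the vehicle groups, at 267 and 484 in WT vehicle, 359 and 506 in KO vehicle, and 462 and 415 with ATL1222. The third, gave 88.5 and 75.0 in WT vehicle, 99.9 and 126 in KO vehicle, and 135 and 92.5 with ATL1222. With probe sets fitted separately, the knockout change of Dusp7 was -0.16 ± 0.31 SE on the brightest and 0.23 ± 0.28 and 0.39 ± 0.38 on the others, so these data give no direction for the gene.

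Of the phosphatases that prefer JNK and p38, Dusp10 and Dusp16, the first had one of the largest changes with the agonist. Dusp10 (chromosome 1) encodes MKP-5. Its signals were 731 and 653 in WT vehicle, 522 and 463 in KO vehicle, and 1710.0 and 1437 with ATL1222. The 3 groups did not overlap, in the same order as for Dusp1, and the arrays of each group lay close together. Its pooled SD within groups was 0.14 on the log2 scale. The mean was 692 ± 55.0 (SD, n = 2) in WT vehicle against 1574 ± 193 with the agonist (log2 1.16 ± 0.17 SE) and 492 ± 41.2 in the knockout (log2 -0.48 ± 0.17). Within replicates 1 and 2 the changes were 1.21 and 1.12 with the agonist and -0.47 and -0.48 in the knockout. It was called with the agonist, but not when WT vehicle replicate 2 or WT ATL1222 replicate 1 was left out, nor without the variance trend, nor with its 2 probe sets averaged. The second probe set, was dim, at 26.8 and 49.3 in WT vehicle, 10.7 and 2.5 in KO vehicle, and 52.7 and 45.6 with ATL1222, and was not tested. It was lowest in the knockout too, while WT vehicle and agonist overlapped on it.

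Dusp16 (chromosome 6) encodes MKP-7. Its signals were 147 and 135 in WT vehicle, 152 and 116 in KO vehicle, and 161 and 140 with ATL1222. All groups overlapped, and every log2 change was smaller than its SE of 0.32. The second probe set, lay between 46.1 and 57.9 on 5 arrays and at 121 on KO vehicle replicate 2.

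Dusp11 and Dusp22 are not classical MAP kinase phosphatases. Dusp11 (chromosome 6) encodes a phosphatase that acts on the 5′ end of RNA. On its brightest probe set, the signals were 2105 and 2037 in WT vehicle, 1993 and 1941 in KO vehicle, and 1772 and 1759 with ATL1222. The groups did not overlap but the differences were small, at log2 -0.23 ± 0.13 SE with the agonist and -0.07 ± 0.13 in the knockout. The second probe set, placed the groups in another order, with 680.1 and 867 in WT vehicle, 999 and 997 in KO vehicle, and 864 and 821 with ATL1222. On it the knockout was higher without overlap (log2 0.37 ± 0.17). The change with the agonist was 0.13 ± 0.17 on it, and those groups overlapped. The probe sets of Dusp11 thus disagreed on the direction both in the knockout and with the agonist.

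Dusp22 (chromosome 13) encodes a small phosphatase, also named JKAP, that is described as an inactivator of the T cell kinase Lck. Its signals were 164 and 189 in WT vehicle, 172 and 106 in KO vehicle, and 171 and 111 with ATL1222. All groups overlapped. In KO vehicle and with ATL1222 replicate 2 was lower than replicate 1, and the changes of -0.34 ± 0.34 SE and -0.32 ± 0.34 rested on replicate 2, with 0.06 and 0.05 within replicate 1.

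**Figure D2:**
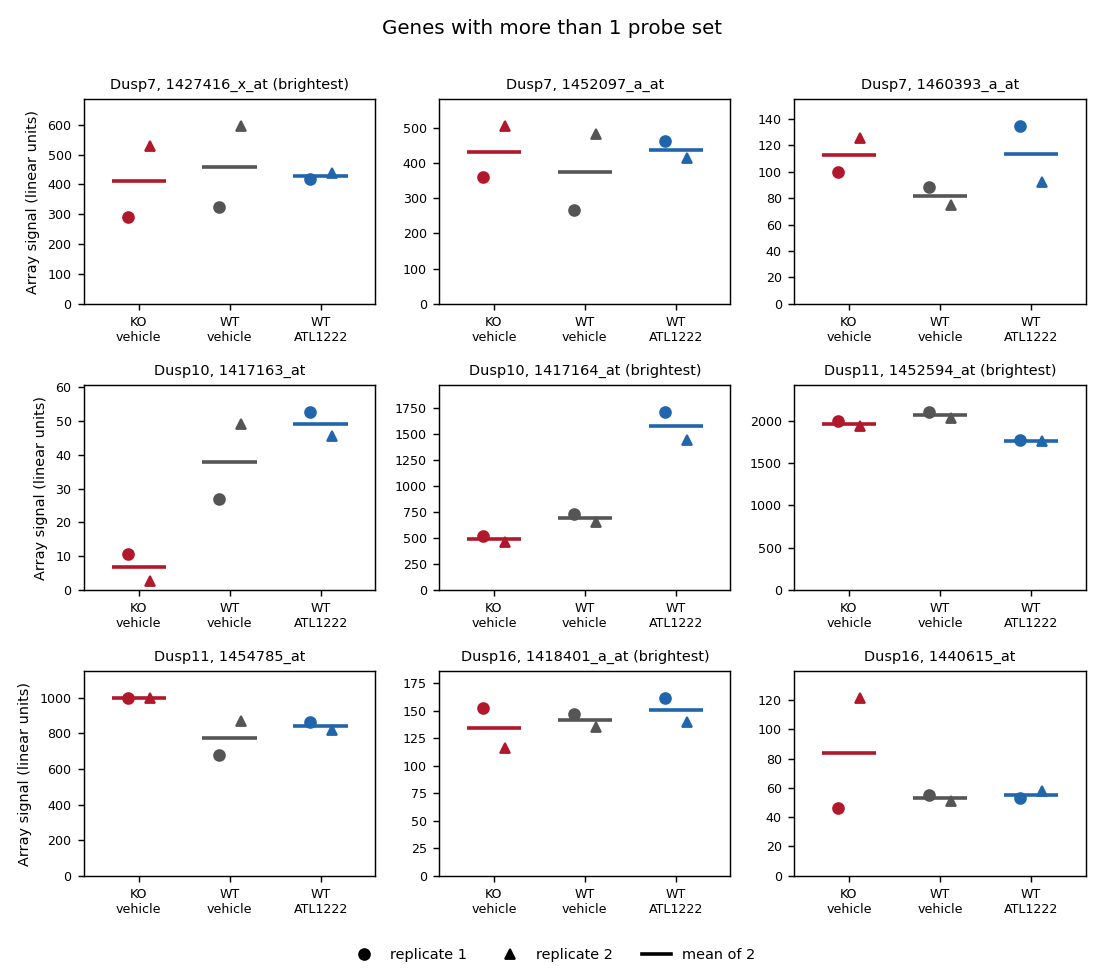
Array signal (linear units, axis from 0) of every probe set of the 4 genes that have more than 1, with circles for replicate 1, triangles for replicate 2 and bars for the mean of 2 arrays. The probe sets of Dusp11 place the knockout on opposite sides of WT vehicle, and the dim one of Dusp10 lies at or under 52.7 on all 6 arrays.

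The first comparison asked what loss of the receptor changes in cells that received no agonist. Of the 10 genes 0 were called, where 0.0275% of all genes tested were called, and 3 had an unadjusted p under 0.05 (Dusp1, Dusp6 and Dusp10), where 3.89% of all genes did. In 6 genes the knockout arrays lay below those of WT vehicle without overlap (Dusp1, Dusp2, Dusp5, Dusp6, Dusp10 and Dusp11), where 13.7% of all genes did. The median log2 fold change of the 10 was -0.22, beside 0.005 over all genes. Of the 5 probe sets that were not the brightest, the 4 tested (2 of Dusp7, 1 of Dusp11 and 1 of Dusp16) had positive changes, while the dim one of Dusp10, not tested, was lower in the knockout without overlap. With every probe set tested separately 0 of the 14 tested for these genes were called, and 0% of all 20967 probe sets.

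The second comparison asked what the agonist changes in wild-type cells. Of the 10 genes 1 was called, Dusp10, and higher, where 0.202% of all genes were called higher and 0.211% in either direction. An unadjusted p under 0.05 was reached by 4, Dusp1, Dusp4, Dusp5 and Dusp10, where 5.03% of all genes did so. These 4 were also the genes whose arrays lay higher with no overlap, beside 14.5% of all genes. Lower with no overlap were 2, Dusp2 and Dusp11, beside 16.3%. On the second probe set of Dusp11 the groups overlapped and the change was positive, at 0.13. The median change of the 10 genes was 0.10, beside -0.01 over all genes, since 6 had positive and 4 negative changes. With every probe set tested separately, 1 of 14 was called, that of Dusp10, and 0.0858% of all probe sets.

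Agonist-treated wild-type cells were also set against the knockout with vehicle, groups that differ in both genotype and treatment. Higher and called were 3 of the 10 genes, where 0.879% of all genes were called higher and 0.999% in either direction. Dusp1 had a log2 change of 1.65 ± 0.21 SE (3.13-fold), Dusp10 of 1.64 ± 0.17 (3.12-fold) and Dusp4 of 1.54 ± 0.27 (2.90-fold). The call of Dusp4 was lost without KO vehicle replicate 2, without WT ATL1222 replicate 1 and with probe sets averaged, and all 3 were lost without the variance trend. Dusp6 (1.01 ± 0.26) and Dusp5 (0.95 ± 0.23) were not called. Dusp5 was called with the lowest 60% of genes left out, when 4 of the 10 genes were called, and without WT ATL1222 replicate 1. An unadjusted p under 0.05 was reached by 5, where 8.48% of all genes did. The same 5 lay higher without overlap, beside 17.4% of all genes, and Dusp11 lay lower, beside 20.9%. The median change was 0.55 over the 10 genes and -0.02 over all. With every probe set tested separately 2 of 14 were called, those of Dusp1 and Dusp10, and 0.382% of all probe sets. The 3 comparisons share arrays, so their values for a gene are not independent of each other.

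**Figure D3:**
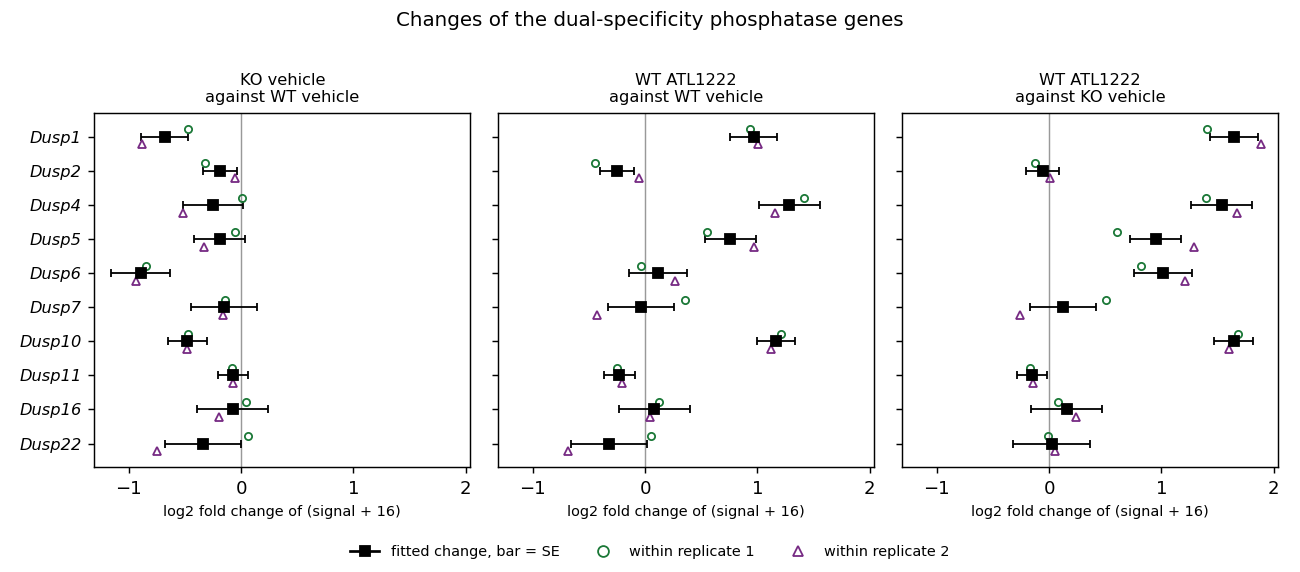
Log2 fold change of (signal + 16) of the 10 genes in the 3 comparisons; squares are fitted changes with bars of 1 SE, open circles the change within replicate 1 and open triangles within replicate 2. Dusp10 has nearly the same change within both replicates in each panel (1.21 and 1.12 with the agonist), while Dusp7 takes opposite signs with the agonist (0.36 and -0.43).

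By the range of their group means, Dusp1, Dusp10 and Dusp4 spanned 1.65, 1.64 and 1.54 on the log2 scale, where the median over all genes tested was 0.27. The tested genes whose log2 values over the 6 arrays were most like those of Dusp10 were Stat3, Pde4d and Rnf157, with Pearson r of 0.994, 0.993 and 0.993. For Dusp1 they were Morf4l2, Cytip and Mrps6, with r of 0.996, 0.995 and 0.995, and for Dusp4 they were Nr4a3, Chst2 and Adamts6, with r of 0.995, 0.992 and 0.991. These were the closest of 10915 genes over only 6 points in 3 groups, so the names describe likeness on these arrays and nothing more.

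The other genes of the family and of the MAP kinase cascades were taken from 9 lists with 98 genes, set out by family and pathway while earlier results of these data were known, so they are no independent comparison set. Of these 87 had a probe set annotated to them alone and 66 were above the limit for dim genes. In the knockout and with the agonist against WT vehicle 0 of them were called, and with the agonist against the knockout 1 was called. An unadjusted p under 0.05 was reached by 3, 7 and 9 of them in that order, where 3.89%, 5.03% and 8.48% of all genes reached it. The 1 called gene was Fos, an AP-1 subunit and early response gene of the ERK pathway, whose signals were 232 and 193 in WT vehicle, 149 and 117 in KO vehicle, and 401 and 381 with ATL1222. Its groups did not overlap, in the order seen for Dusp1 and Dusp10, and the difference between agonist and knockout was log2 1.46 ± 0.25 SE (limma adjusted p = 0.00995). That call was lost without KO vehicle replicate 2, without either WT ATL1222 array and without the variance trend.

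Among the other dual-specificity phosphatases 7 of 16 genes on the array were tested and 0 were called in any comparison. With the agonist the smallest p was that of Dusp28, an atypical member, with signals of 283 and 290 in WT vehicle and 202 and 181 with ATL1222 (log2 -0.54 ± 0.24 SE, limma adjusted p = 0.932). In the knockout it was that of Dusp8, a JNK and p38 phosphatase, with 157 and 131 in WT vehicle and 77.2 and 102 in KO vehicle (log2 -0.61 ± 0.36, limma adjusted p = 1.00). Neither gene passed the threshold. The median change of the 7 genes was -0.12 with the agonist and -0.20 in the knockout, beside -0.01 and 0.005 over all genes.

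Of 7 MAP kinases, 6 MAP kinase kinases, 11 MAP kinase kinase kinases and 8 genes of Ras with its activators and inhibitors tested, 0 were called in any comparison. With the agonist the smallest p of each list was that of Mapk11 (log2 -0.19 ± 0.26 SE), Map2k3 (0.56 ± 0.21), Map3k2 (0.63 ± 0.20) and Rasa1 (-0.34 ± 0.14), in that order. In the knockout they were Mapk11 (0.25 ± 0.26), Map2k3 (-0.26 ± 0.21), Map3k14 (0.51 ± 0.22) and Rasa1 (0.22 ± 0.14). Map2k3, a kinase that activates p38, had signals of 1189 and 910 in WT vehicle, 1053 and 713 in KO vehicle, and 1821 and 1314 with ATL1222, and limma adjusted p = 0.766 with the agonist against WT vehicle and 0.122 against the knockout. Rasa1, an inhibitor of Ras, had 3831 and 3450 in WT vehicle, 4398 and 4086 in KO vehicle, and 2651 and 3122 with ATL1222, with limma adjusted p = 0.0958 between agonist and knockout.

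The remaining lists held other inhibitors, downstream kinases and response genes. Of 4 tested Sprouty and Spred genes, which inhibit ERK signalling, 0 were called. Spry1 was at 260 and 250 in WT vehicle, 303 and 333 in KO vehicle, and 183 and 173 with ATL1222. Its difference between agonist and knockout was log2 -0.78 ± 0.23 SE (limma adjusted p = 0.203), opposite in sign to those of Dusp1, Dusp4 and Dusp10. The 4 genes did not share that sign, as 2 had positive and 2 negative changes, with a median of 0.07. Of 6 other phosphatases of MAP kinases 0 were called, with the smallest p for Ptpn5 with the agonist (log2 0.78 ± 0.39) and Ppp2cb in the knockout (0.25 ± 0.20). Of 7 downstream kinases 0 were called, with the smallest p in the knockout for Rps6ka5 (log2 1.20 ± 0.32, limma adjusted p = 0.905) and with the agonist for Mknk1 (0.40 ± 0.21). Of 10 genes listed as ERK-responsive, a list that also holds the transcription factors Elk1, Elk3 and Srf, Fos was called as given above. Between agonist and knockout 7 of the 10 changes were positive and 3 negative, where 46.6% of all genes had positive changes. With the agonist against WT vehicle 6 were positive and 4 negative, beside 48.6% positive over all genes. In the knockout 2 were positive and 8 negative, beside 50.9% positive over all genes. The early response gene Ier2 had the smallest p with the agonist against WT vehicle, at 1416 and 1025 in WT vehicle and 2353 and 1760.0 with ATL1222 (log2 0.75 ± 0.20, limma adjusted p = 0.323), and did not pass.

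**Figure D4:**
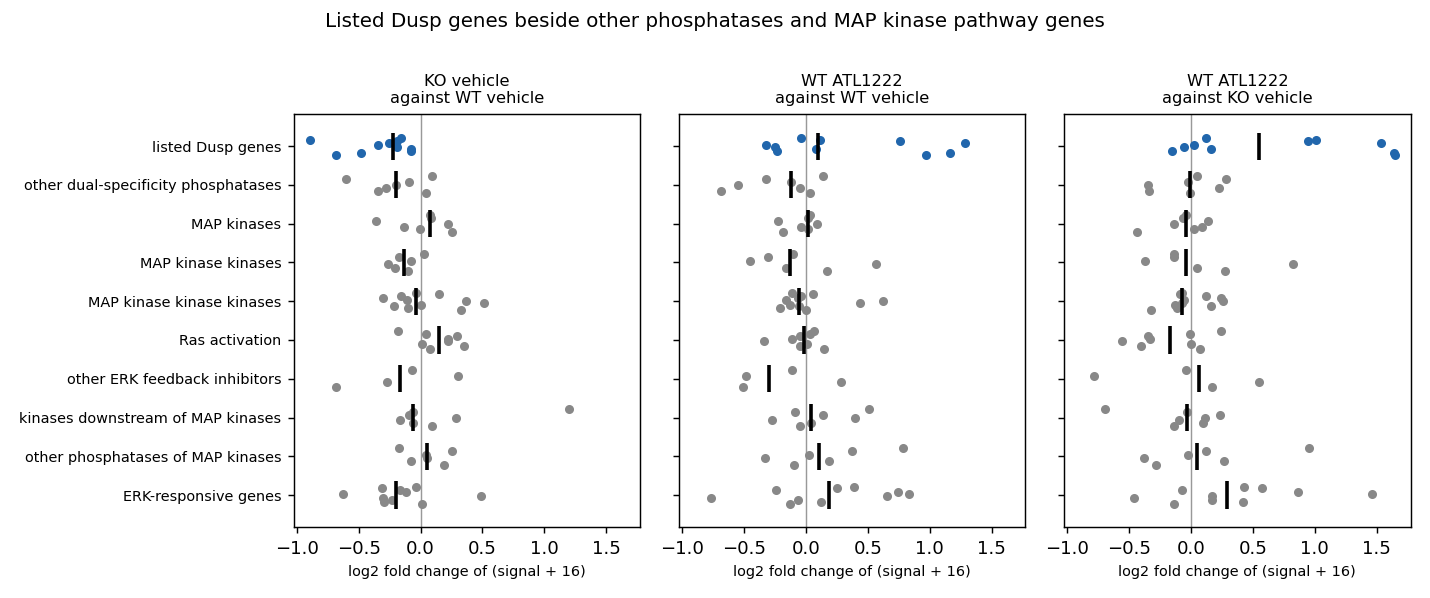
Log2 fold change of (signal + 16) of each tested gene in the 10 listed Dusp genes (blue) and 9 lists of other phosphatases and MAP kinase pathway genes (grey) in the 3 comparisons; black bars are list medians. With the agonist against the knockout, the 5 highest Dusp genes run from 0.949 to 1.65. The highest grey points are Fos, at 1.46, and Ptpn5, at 0.955.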

How the data were processed

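Signals of 45101 probe sets on 6 arrays are intensities on a linear scale as the authors deposited them; they came from GCOS, per the submitters' processing notes, whose version and settings were not known here. Total RNA was amplified and biotinylated with a 3'-IVT kit, per the labels. In the deposited values each array had a mean of 250.0 after the highest and lowest 2% were left out, and this scaling was kept. After 64 control probe sets were left out, 34945 probe sets had 1 gene in the platform annotation, 932 had several and 9160 were not listed; names were updated through Entrez identifiers. Each gene was represented by the probe set with the highest mean of log2(signal + 16), and 10916 of 18193 genes above the 40th percentile were fitted with limma 3.58.1 in R 4.3.3 (mean-variance trend, no block, all arrays), with Benjamini-Hochberg adjustment. Probe sets were also fitted separately. Precision is limited by having 2 arrays a group: the median SE was 0.231, and the smallest two-sided exact permutation p is 0.33. The fit was also run on simulated data, whose outcome is not reported here and is not used as support. Groups came from sample titles. All members are described, and of the other lists any called gene and otherwise the smallest p of each list are named. The members and lists were chosen with earlier results of these data known. The alternatives varied the pseudocount, filter, probe set rule, normalization, trend, block and arrays. The receptor's own gene is not reported here, so genotypes have no expression check.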

Additional observations from a re-analysis of the deposited data

How the results depend on the processing

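The filter, trend, block and 4-array settings leave a log2 change as it is and say nothing about its sign. Among the 252 values from the settings that rescale the arrays, average several probe sets of a gene or leave out an array of either group compared, the log2 changes of the 10 genes kept their sign in 237. The 15 exceptions were all in Dusp4, Dusp7, Dusp11, Dusp16 and Dusp22. Dusp16 and Dusp22 have no value with the lowest 60% of genes left out, which removed them. The change of Dusp10 with the agonist against WT vehicle lay between 1.04 and 1.29 in all settings other than the averaging of its bright and its dim probe set, which gave 0.73. Counts of called genes changed with the settings, and the cause was not tested. For all genes, the counts of 3 in the knockout, 23 with the agonist and 109 between agonist and knockout became 0, 3 and 44 with probe sets averaged, and 0, 0 and 5 without the variance trend. With the replicate number as a block they were 9, 79 and 264. The last 2 counts were 14 and 70 with no filter on dim genes, and the second was 36 with the lowest 60% left out, 35 after cyclic loess and 44 with only the 4 arrays compared. Leaving out 1 array at a time gave 3 to 9, 5 to 39 and 55 to 143, with the lone array of a group assumed to vary like the others.

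Of the 10 Dusp genes 0 were called in the knockout under limma in every setting run, and 3 had an unadjusted p under 0.05 in the setting reported. The 1 called with the agonist became 2 with the lowest 60% left out, 0 with probe sets averaged, 0 without the trend and 3 with only the 4 arrays compared (Dusp1, Dusp4 and Dusp10). With the replicate block the same 3 were called, and 4 against the knockout, with Dusp5 as the further gene. There the count of 3 fell to 0 without the trend and was 4, again with Dusp5, with the lowest 60% left out. Leaving out 1 array gave 0 to 3 with the agonist, the lowest without WT vehicle replicate 2 or WT ATL1222 replicate 1 and the highest without either KO vehicle array, and 2 to 3 against the knockout, where Dusp5 stood in place of Dusp4 without WT ATL1222 replicate 1. The titles give a number and do not say what it marks, so the block is an alternative only. Differences between replicates 1 and 2 correlated across genes between the groups with r from 0.15 to 0.23. Of the other listed genes 1, Ier2, was called with the agonist under the replicate block. Against the knockout the count of 1 became 2 with the lowest 60% left out, 0 without the trend, 2 after quantile normalization, 3 after cyclic loess, 2 with only the 4 arrays compared and 4 with the block, and 0 to 3 with 1 array left out.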
